A study of Homo sapiens with 4 samples.

Results

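IP-poor windows in coding sequence are stretches of coding RNA that the table of m6A-seq windows lists although at least 4 input reads were counted there for each read of the immunoprecipitate (IP). They were chosen by these reads and by the authors' coding label, so low IP counts are what defines them and not a finding. The rule kept 6598 windows in 2578 genes, of 27678 listed windows in 7269 genes and of 18914 listed coding windows. On the plus strand of the genome 4157 windows in 1624 genes were kept, and on the minus strand 2441 windows in 954 genes.

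The libraries were made from cells named MDA-MB-231Br in the design text, a line that homes to the brain and was derived from MDA-MB-231 breast cancer cells. The cell line label itself gives MDA-MB-231, while the RNA extraction text names embryos, and nothing at hand settles which holds. Poly(A) RNA went into 2 IP libraries, pulled down through an m6A (N6-methyladenosine) antibody, and 2 input libraries, with no treatment, knockdown or second cell line among them. The protocol names sonication for the IP samples and does not say whether the input RNA was fragmented. Of markers known to be high in this line, VIM had 5 listed windows, CD44 had 11, CAV1 had 4, AXL had 15 and NT5E had 11, with up to 13580 input reads in 1 window of VIM. Of genes known to be low in it, ESR1, CDH1 and ERBB3 had 0 listed windows and GATA3 had 1, with 0 input reads.

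The table held 1 IP and 1 input read count for each window. No window therefore has a replicate value, no test across libraries was possible, and every interval below is an exact 95% interval for counting error only. Intervals of shares count each window as a separate draw, although windows of 1 gene are not independent and overlapping windows share reads. Library totals were not used, so the ratio that stands for no enrichment is unknown, and ratios are compared only between windows. Coding windows where IP reads were at least 4 for each input read, called IP-rich here, and the coding windows between these limits were used for contrast.

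m6A is the commonest internal mark of messenger RNA. It is written on adenosine within the DRACH consensus (where D is not C, R is a purine and H is not G), of which GGAC is the best known core, by a nuclear complex built around METTL3 and METTL14, and it is bound by readers such as the YTHDF proteins. The mark is known to collect in long internal exons and in last exons around the stop codon, and to be scarce in the short internal exons that make up most coding sequence. Exon junction complexes, left on messenger RNA by splicing just upstream of each junction, are known to keep the writer away from nearby adenosines. Coding windows poor in antibody pull-down are listed here beside windows rich in it. Their sequence can be read without the reads that chose them. Their exon structure cannot be read wholly apart from those reads, since exon-joining windows had more input reads per nt, as given below.

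The sequences of IP-poor windows with the lowest upper bound of the read ratio are examples from the extreme of the group. Each lies within 1 exon and within coding sequence, is 300 nt long or less, and overlaps no exon of another annotated gene. They are written 5′ to 3′ on the transcribed strand from GENCODE release 29 transcripts (GRCh38), with GGAC in capitals. CANX encodes the chaperone calnexin, RPL15 a protein of the large ribosomal subunit and XRCC5 the Ku80 subunit of the DNA end-binding Ku complex. PRDX1 encodes the peroxide-reducing enzyme peroxiredoxin 1, HSPD1 the mitochondrial chaperone HSP60 and NCL the nucleolar protein nucleolin.
CANX, chr5:179707133-179707182, plus strand, exon 4: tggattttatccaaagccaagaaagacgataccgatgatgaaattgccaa
RPL15, chr3:23918448-23918567, plus strand, exon 3: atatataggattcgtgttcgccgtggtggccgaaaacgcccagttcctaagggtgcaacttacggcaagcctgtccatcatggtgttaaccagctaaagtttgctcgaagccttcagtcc
XRCC5, chr2:216116683-216116842, plus strand, exon 5: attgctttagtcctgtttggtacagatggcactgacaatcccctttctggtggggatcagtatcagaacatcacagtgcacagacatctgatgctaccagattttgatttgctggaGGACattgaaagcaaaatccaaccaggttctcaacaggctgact
PRDX1, chr1:45515661-45515800, minus strand, exon 3: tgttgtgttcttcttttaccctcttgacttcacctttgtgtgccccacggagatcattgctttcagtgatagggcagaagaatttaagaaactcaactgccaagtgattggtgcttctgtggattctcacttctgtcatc
HSPD1, chr2:197488360-197488489, minus strand, exon 10: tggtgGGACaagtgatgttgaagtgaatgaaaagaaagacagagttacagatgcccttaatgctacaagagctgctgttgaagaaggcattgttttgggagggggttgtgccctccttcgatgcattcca
NCL, chr2:231456633-231456762, minus strand, exon 11: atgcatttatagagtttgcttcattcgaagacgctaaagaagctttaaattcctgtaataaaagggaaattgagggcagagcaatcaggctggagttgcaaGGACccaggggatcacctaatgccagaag

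The CANX window had 5 IP and 1035 input reads, a ratio of 0.00483 (0.00157 to 0.0113). The RPL15 window had 28 IP and 2730 input reads (ratio 0.0103), and the XRCC5 window had 7 IP and 571 input reads (0.0123). In the minus-strand set PRDX1 had 5 IP and 872 input reads (0.00573), HSPD1 had 6 and 713 (0.00842) and NCL had 10 and 866 (0.0115). GC content was 38.0% in CANX, 50.8% in RPL15, 45% in XRCC5, 43.6% in PRDX1, 46.2% in HSPD1 and 43.1% in NCL. A GGAC core stood in 3 of these 6 windows, those of XRCC5, HSPD1 and NCL, so its letters were present in some of the windows with the fewest IP reads per input read. All 6 lay in exons of at most 184 nt. They are not typical in this respect. Over all IP-poor windows within 1 exon the exon had a median length of 1049 nt on the plus strand and 225.5 nt on the minus strand.

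Pairs of windows from 1 transcript show how far IP reads could differ within a gene. These are the genes with the widest gap between an IP-poor and an IP-rich coding window where both lie in 1 exon and are short enough to print. SPTBN1 encodes beta-spectrin, a scaffold under the plasma membrane, and LMNB1 encodes lamin B1 of the nuclear lamina. RCC2 encodes a chromosome-associated regulator of mitosis, and GON4L a nuclear protein.
SPTBN1, IP-poor, chr2:54618082-54618181, plus strand, exon 7: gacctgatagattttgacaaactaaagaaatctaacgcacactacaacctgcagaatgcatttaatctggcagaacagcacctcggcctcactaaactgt
SPTBN1, IP-rich, chr2:54649678-54649887, plus strand, exon 26: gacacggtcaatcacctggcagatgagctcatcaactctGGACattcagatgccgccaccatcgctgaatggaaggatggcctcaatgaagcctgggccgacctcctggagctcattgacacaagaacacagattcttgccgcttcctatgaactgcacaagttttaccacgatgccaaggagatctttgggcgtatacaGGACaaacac
LMNB1, IP-poor, chr5:126810222-126810341, plus strand, exon 4: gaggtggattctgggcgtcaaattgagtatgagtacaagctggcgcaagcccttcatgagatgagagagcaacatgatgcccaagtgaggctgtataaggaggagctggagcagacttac
LMNB1, IP-rich, chr5:126777633-126777862, plus strand, exon 1: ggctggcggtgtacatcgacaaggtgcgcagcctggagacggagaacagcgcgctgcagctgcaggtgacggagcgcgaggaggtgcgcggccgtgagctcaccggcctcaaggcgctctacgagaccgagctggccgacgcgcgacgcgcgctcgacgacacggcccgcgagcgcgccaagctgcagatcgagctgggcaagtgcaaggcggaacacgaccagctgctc
RCC2, IP-poor, chr1:17416484-17416643, minus strand, exon 8: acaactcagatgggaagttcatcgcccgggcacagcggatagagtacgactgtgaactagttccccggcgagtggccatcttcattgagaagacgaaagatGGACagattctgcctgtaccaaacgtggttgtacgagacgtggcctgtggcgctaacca
RCC2, IP-rich, chr1:17438232-17438491, minus strand, exon 2: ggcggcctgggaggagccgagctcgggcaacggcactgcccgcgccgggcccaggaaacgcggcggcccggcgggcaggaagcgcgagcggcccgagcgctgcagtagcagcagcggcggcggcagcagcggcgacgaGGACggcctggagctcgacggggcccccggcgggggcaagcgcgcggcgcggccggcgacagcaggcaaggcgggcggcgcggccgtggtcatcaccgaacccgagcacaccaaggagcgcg
GON4L, IP-poor, chr1:155775014-155775173, minus strand, exon 17: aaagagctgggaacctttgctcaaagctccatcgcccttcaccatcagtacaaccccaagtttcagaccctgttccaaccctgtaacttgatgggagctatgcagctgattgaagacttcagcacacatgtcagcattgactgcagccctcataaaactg
GON4L, IP-rich, chr1:155763430-155763559, minus strand, exon 22: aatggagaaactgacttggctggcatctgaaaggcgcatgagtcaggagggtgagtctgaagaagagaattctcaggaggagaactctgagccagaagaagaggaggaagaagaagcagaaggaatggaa

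In SPTBN1 the IP-poor window had 9 IP and 228 input reads and 0 GGAC sites, against 3888 IP and 769 input reads and 2 GGAC sites in the IP-rich window. In LMNB1 the IP-poor window had 45 IP and 474 input reads, against 255 IP and 28 input reads in the IP-rich one, and neither holds GGAC, but GC content was 50.8% against 70.0%. In RCC2 the IP-poor window had 25 IP and 348 input reads, against 26 IP and 1 input read, so that this IP-rich window rests on a single input read. GON4L differed in neither respect. Its IP-poor window had 8 IP and 70 input reads at 48.8% GC, against 359 IP and 48 input reads at 48.5% GC, with 0 GGAC sites in both. The exon at the window was 116 nt long in the SPTBN1 IP-poor window, against 375 nt in its IP-rich window, 171 against 720 nt in LMNB1, 167 against 293 nt in RCC2 and 172 against 253 nt in GON4L.

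One property of the deposited reads bears on most of the results below. Most IP-poor windows join exons, and the reads given for such windows moved with the length of the introns between those exons. Relative to windows of the same gene that lie in 1 exon, plus-strand windows with up to 200 nt of intron had a median 1.91 times the input reads per nt, and those with over 30000 nt of intron 5.07 times. Minus-strand windows had 1.13 and 2.78 times. IP reads per nt moved less, with 1.03 and 1.77 times on the plus strand and 0.774 and 0.904 times on the minus strand. The share of exon-joining coding windows that were IP-poor was 37.3% at up to 200 nt of intron and 48.6% at over 30000 nt on the plus strand, and 32.3% and 49.5% on the minus strand. At intron lengths between these it was 36.3% to 43.3% on the plus strand, without a steady rise, and 37.3% to 41.1% on the minus strand. Whether the authors counted reads over the whole genomic span, introns included, is not given in the sources used here. Another annotated gene has an exon inside the introns of 494 of 3702 exon-joining IP-poor windows (13.3%) on the plus strand and 284 of 2141 (13.3%) on the minus strand. In 542 members the exons themselves overlap an exon of another gene, and whether reads were counted by strand is not given either. Results are therefore also given for windows within 1 exon and for windows with no exon of another gene in their span.

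Coding windows poor in IP reads were common on both strands. At least 4 input reads per IP read were counted in 35.9% of the 11593 plus-strand coding windows (4157, interval 35.0 to 36.7) and in 33.3% of the 7321 minus-strand ones (2441, interval 32.3 to 34.4). IP-rich windows made up 12.1% (1402) and 11.8% (864). Since the rule used these reads, the shares are a description. Among windows within 1 exon the IP-poor share was 17.0% on the plus strand (390 of 2299) and 16.0% on the minus strand (268 of 1676), and among those joining exons it was 40.7% (3702 of 9089) and 39.0% (2141 of 5486). Without windows that have another gene's exon in their span it was 35.5% on the plus strand and 33.5% on the minus strand.

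A typical IP-poor window had 13 IP and 159 input reads on the plus strand and 10 IP and 122 input reads on the minus strand (medians), against 213 IP and 26 input reads and 125 IP and 14 input reads in IP-rich coding windows. The median ratio of IP to input reads was 0.10 on the plus strand and 0.104 on the minus strand, against 0.482 and 0.487 over all coding windows. Every window of the table had at least 5 IP reads, so a member had at least 20 input reads, and 937 members had just 5 IP reads. RNA with fewer IP reads is not in the table. The upper bound of the ratio was below 0.25 in 69.5% of plus-strand and 63.8% of minus-strand members. The authors' FDR had a median of 2.85e-09 in plus-strand and 3.71e-10 in minus-strand members, so a low FDR in this table did not mean many IP reads per input read.

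**Figure D1:**
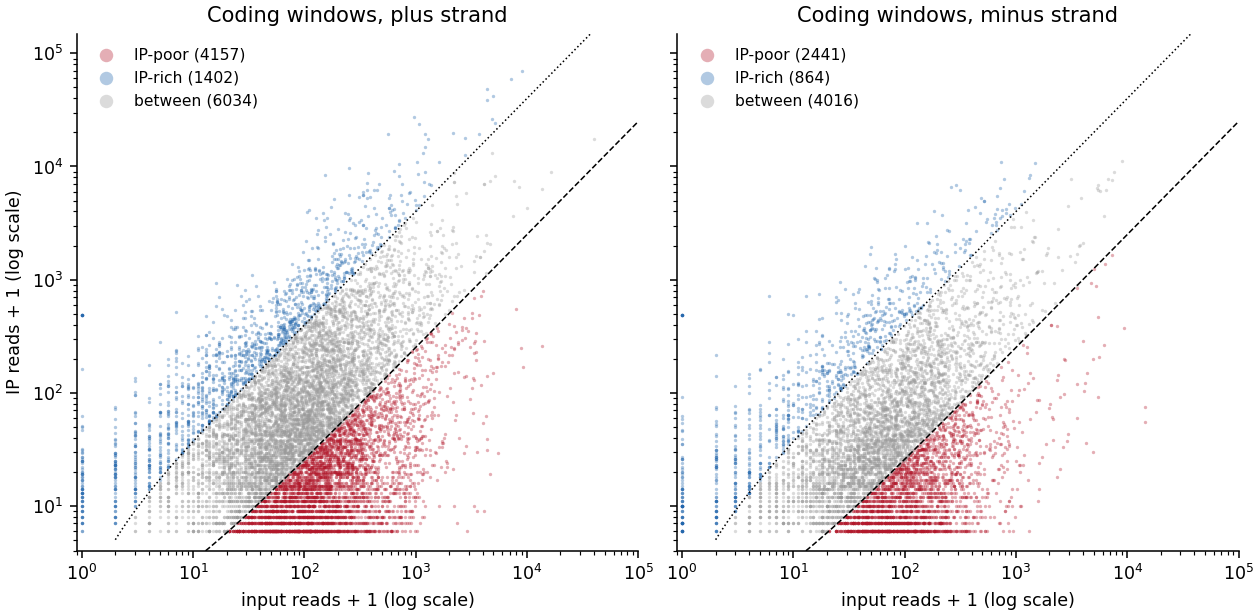
IP reads against input reads of each coding window, both plus 1 and on log scales, for the plus strand (left) and the minus strand (right). Red points are IP-poor windows, blue points IP-rich windows and grey points the rest; the dashed line marks 4 input reads per IP read and the dotted line 4 IP reads per input read, and the floor of 5 IP reads is seen at the bottom.

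At the threshold, windows on both sides had like values. The window with most reads at a ratio of 0.25 on the plus strand lay in TIE1, an endothelial-type receptor tyrosine kinase, with 74 IP and 296 input reads (interval of the ratio 0.191 to 0.324). The nearest one outside lay in SNX17, an endosomal sorting protein, with 59 IP and 235 input reads (0.185 to 0.335). FAM182B on the minus strand stood just inside with 45 IP and 180 input reads, and RPS23, a protein of the small ribosomal subunit, just outside with 890 IP and 3559 input reads. Ratios from 0.2 to 0.25 were found in 569 plus-strand and 366 minus-strand windows, against 419 and 315 with ratios above 0.25 and up to 0.3.

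The lowest upper bounds of the ratio on the plus strand stood in NPM1, SLC25A3, EIF1, RPL15, PCBD2 and RAN. NPM1, the nucleolar histone chaperone nucleophosmin, had 8 IP and 4084 input reads where its exons 4 and 5 join (ratio 0.00196, interval 0.000845 to 0.00386). SLC25A3, the mitochondrial phosphate carrier, had 5 IP and 2910 input reads over exons 4 and 5 (0.00172, interval 0.000558 to 0.00401). EIF1, a factor of start codon selection, had 6 IP and 2335 input reads, RPL15 had 18 and 4605, and RAN, the GTPase that drives nuclear transport, had 9 and 1606. PCBD2, a pterin dehydratase and transcription coactivator, had 30 IP and 4369 input reads over exons 2 to 4, but its introns hold annotated copies of mitochondrial genes, and the window before them, across exons 1 and 2, had 57 IP and 29 input reads. No value separates reads of PCBD2 from reads of those copies. NPM1 and the ribosomal protein genes have processed copies in the genome, so the share of reads placed on the parent gene is uncertain.

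Low upper bounds on the minus strand stood in RPL37, RPL17-C18orf32, PRDX1, RPL4 and LDHB. RPL37, of the large ribosomal subunit, had 29 IP and 4877 input reads with the small nucleolar RNA gene SNORD72 in its introns, and RPL17-C18orf32, a read-through gene that shares exons with RPL17, had 35 and 4297. PRDX1 had 5 IP and 1301 input reads, RPL4, of the large ribosomal subunit, had 10 and 1590, and LDHB, the B subunit of lactate dehydrogenase, had 5 and 942. For the LDHB window another annotated transcript, AC010197.2, overlaps the exons. For PRDX1 and RPL4 the introns and exons of the window hold no other gene.

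Several of the windows with most input reads span another gene. On the plus strand RPL15 had 255 IP and 13662 input reads across exons 3 to 5, and AEBP2, a partner of the Polycomb complex PRC2, had 246 and 8855 with the elongation factor pseudogene EEF1A1P4 in its intron. Among minus-strand windows BAIAP2L1, an actin-binding adaptor, had 372 IP and 9347 input reads and the ribosomal pseudogene RPS3AP26 in its introns. AMBRA1, a scaffold of autophagy, had 1653 IP and 7274 input reads and AC024293.1 in its intron. Of the 20 IP-poor exon-joining windows with most input reads, 6 on the plus strand and 11 on the minus strand had another gene's exon in their introns.

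Windows within 1 exon have no introns that could hold another gene. After CANX and RPL15 on the plus strand came NT5E, the surface enzyme CD73, with 5 IP and 602 input reads from the end of its coding sequence into the 3' UTR. PSMD2, a subunit of the proteasome cap, had 29 IP and 1495 input reads, and PCBP2, a poly(C)-binding protein, had 19 and 1017; both windows start in coding sequence and have their midpoint in the 3' UTR, as does that of NT5E. DNAH11, an axonemal dynein chain, had 5 IP and 599 input reads in its last exon, where CDCA7L on the other strand overlaps it. On the minus strand HSP90AA1, the inducible HSP90 chaperone, had 23 IP and 1598 input reads and FAT1, a giant cadherin, 6 and 441 within an exon of 4068 nt. UQCRB, of respiratory complex III, had 5 and 760, EIF3H, of initiation factor 3, had 8 and 792, and YWHAZ, the 14-3-3 zeta protein, had 27 and 1186. FTL, the ferritin light chain, had most input reads within 1 exon on the plus strand, with 544 IP and 7983 input reads in a window whose midpoint is also in the 3' UTR. On the minus strand TUBA1A, an alpha-tubulin nearly identical to its paralogs, had 204 IP and 5571 input reads.

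IP-poor coding windows joined exons more often than IP-rich ones. Of placed IP-poor windows, 90.5% joined exons on the plus strand (3702 of 4092, interval 89.5 to 91.4) and 88.9% on the minus strand (2141 of 2409, interval 87.5 to 90.1), against 55.3% (756 of 1366) and 48.7% (403 of 828) of IP-rich windows. The windows between them took values of 78.1% on the plus strand and 75% on the minus strand. Windows of the same lengths laid at every position of the members' own coding sequences would join exons in 79.2% of cases on the plus strand and 80.7% on the minus strand, and the same for IP-rich windows in their transcripts gave 64.4% and 67.8%. IP-poor windows thus joined exons more often than positions in their own transcripts would give, and IP-rich windows less often, on both strands. The rule counts input reads, and relative to windows within 1 exon these were higher per nt in exon-joining windows, by more than IP reads. The excess of exon joining is therefore not independent of the rule. Leaving out windows with another gene's exon in their span keeps the introns and does not remove this limit. Without windows that have another gene's exon in their span, the shares were 89.4% in IP-poor and 53.2% in IP-rich windows on the plus strand, and 87.6% and 46.8% on the minus strand. At least 3 exons were joined in 23.5% of IP-poor windows on the plus strand and 21.3% on the minus strand, against 11.3% and 6.40% of IP-rich ones.

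The exon at the midpoint of an IP-poor window had a median length of 150 nt on the plus strand and 144 nt on the minus strand, against 398 and 312 nt for IP-rich windows and 177 and 173 nt for the windows between. It was over 400 nt long in 16.3% and 9.63% of IP-poor windows, against 49.9% and 44.9% of IP-rich windows. Of the coding sequence of the members' transcripts, 29.8% on the plus strand and 23.3% on the minus strand lies in exons over 400 nt. Within windows of 1 exon the shares were 64.9% and 36.2% for IP-poor windows, against 85.7% and 70.4% for IP-rich windows. The direction was the same on both strands and in both sets. The midpoint lay in the last exon in 12.3% and 3.49% of IP-poor windows, against 24.6% and 18.6% of IP-rich ones, and in the first exon in 1.83% and 6.85%, against 17.1% and 23.9%. Within 1 exon the share in the last exon was nearly the same on the plus strand, at 42.8% against 43.3%, and lower in IP-poor windows on the minus strand, at 14.9% against 27.5%. The first exon held 3.59% and 5.60% of IP-poor windows within 1 exon, against 26.4% and 35.1% of IP-rich ones.

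Read the other way, the share of coding windows that were IP-poor was lower in exons over 400 nt than in exons of 150 to 200 nt. For windows within 1 exon on the plus strand it was 32.9% in exons of 150 to 200 nt (47 of 143, interval 25.3 to 41.2), 28.1% at 200 to 300 nt (50 of 178), 10.1% at 400 to 800 nt (35 of 345, interval 7.17 to 13.8) and 15.4% above 800 nt (218 of 1417). The minus strand had 32.9% (70 of 213, interval 26.6 to 39.6), 20.5% (43 of 210), 8.96% (25 of 279, interval 5.88 to 12.9) and 10.5% (72 of 683). Exons of up to 150 nt broke the order, with 20% (25 of 125) on the plus strand and 27.3% (45 of 165) on the minus strand. For windows joining exons the share was 43.5% with up to 150 nt at the midpoint and 33.3% above 800 nt on the plus strand, and 42.9% and 22.6% on the minus strand.

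**Figure D2:**
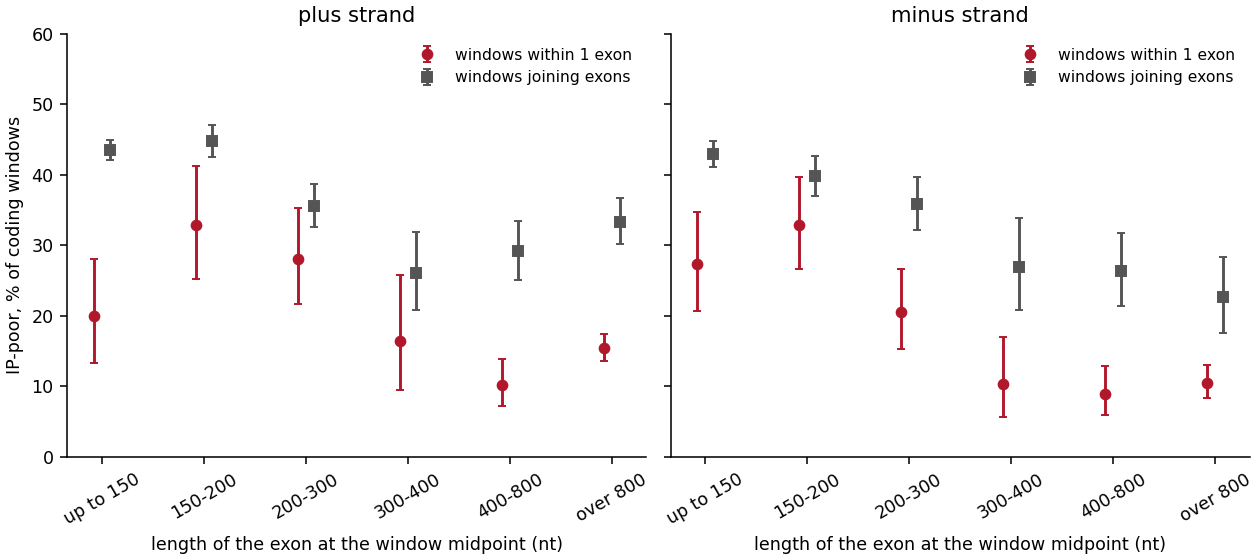
Share of coding windows that were IP-poor (%) by the length of the exon at the window midpoint (nt), for windows within 1 exon (red circles) and windows joining exons (grey squares), on the plus strand (left) and the minus strand (right). Bars are exact 95% intervals for counting error; the shares above 400 nt, at 10.1% and 15.4% on the plus strand and 8.96% and 10.5% on the minus strand within 1 exon, lie below those at 150 to 200 nt, at 32.9% on both strands.

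IP-poor windows were poorer in G and C than IP-rich ones. The median GC content of IP-poor windows was 49.1% on the plus strand and 50.8% on the minus strand, against 62.1% and 63.2% in IP-rich windows and 55.4% and 56.1% in those between. The interquartile ranges were 44.2 to 54.2% in IP-poor and 56.8 to 66.9% in IP-rich windows on the plus strand, and on the minus strand 45.3 to 56.0% and 56.8 to 69.1%. Pooled over their bases, IP-poor windows had 49.7% GC on the plus strand and 51.8% on the minus strand. The whole coding sequence of the members' transcripts had 52.0% and 51.0%. IP-poor windows thus lay below their own coding sequences on the plus strand and not on the minus strand. Within 1 exon the medians were 49% and 50% in IP-poor windows, against 64.0% and 65.7% in IP-rich ones. Of windows within 1 exon, 32.4% were IP-poor below 45% GC on the plus strand (117 of 361) and 1.38% at 65% GC and above (6 of 434). Minus-strand shares were 19.9% (62 of 312) and 3.28% (13 of 396), with 25% between 45 and 55% GC. GC content can also alter how well a fragment is amplified and sequenced, and its part in the read ratios was not tested.

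Exon length kept its relation to the IP-poor share within ranges of GC content. For windows within 1 exon, those in exons of up to 400 nt were more often IP-poor than those in longer exons in each of the 4 GC ranges on both strands. Between 45 and 55% GC the shares were 36.1% (61 of 169) in exons up to 400 nt and 23.3% (127 of 546) in longer ones on the plus strand, and 35.0% (71 of 203) and 18.1% (53 of 293) on the minus strand. Between 55 and 65% GC they were 20.2% and 6.37% on the plus strand and 22.8% and 7.51% on the minus strand. For windows joining exons the same direction held in each GC range but the highest on the minus strand, where 10.0% (41 of 410) and 16.7% (19 of 114) were IP-poor.

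GGAC sites were sparser in IP-poor than in IP-rich windows. They numbered 0.439 per 100 nt on the plus strand (3531 sites, interval 0.425 to 0.454) and 0.451 on the minus strand (2027 sites, interval 0.431 to 0.471), against 0.752 and 0.732 in IP-rich windows and 0.574 and 0.558 in those between. The coding sequences of the members' own transcripts held 0.489 and 0.471 per 100 nt, above the IP-poor windows, but by little on the minus strand. Over the settings run, the minus-strand density of IP-poor windows ranged from 0.395 within 1 exon to 0.473 at 2 input reads per IP read. It was thus not below 0.471 in every setting. No such level was computed for the transcripts of IP-rich windows, so those windows are not set against it. At least 1 GGAC was present in 54.2% and 52.9% of IP-poor windows, against 76.9% and 73.0% of IP-rich ones, which are also longer (median 170 nt on both strands, against 210 and 190 nt). Within 1 exon the densities were 0.374 and 0.395 in IP-poor windows, against 0.759 and 0.739 in IP-rich windows. GGAC holds 3 bases of G or C among its 4, so its density moves with GC content.

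Against IP-rich windows the wider consensus went the other way. DRACH sites, of which GGAC followed by A, C or T is a special case, numbered 2.09 and 1.98 per 100 nt in IP-poor windows. IP-rich windows had 1.75 and 1.67. The members' coding sequences held 2.05 and 2.08. IP-poor windows thus lay above their own coding sequences on the plus strand and below them on the minus strand. A DRACH site was present in 96.0% and 95.9% of IP-poor windows, against 95.2% and 93.0% of IP-rich ones. Most of the GGAC sites of IP-poor windows lay near an exon junction, at 84.3% and 87.1% within 100 nt of one, against 46.0% and 50.8% in IP-rich windows. Over the members' whole coding sequences the share was 74.3% and 79.1%. Within 1 exon it was 28.9% and 44.3%, against 12.5% and 20.4%. A window that joins exons holds a junction, and 90.5% and 88.9% of IP-poor windows did so, against 55.3% and 48.7% of IP-rich ones. The share of GGAC sites near a junction therefore moves with the share joining exons, and it was not compared with other bases of the windows.

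**Figure D3:**
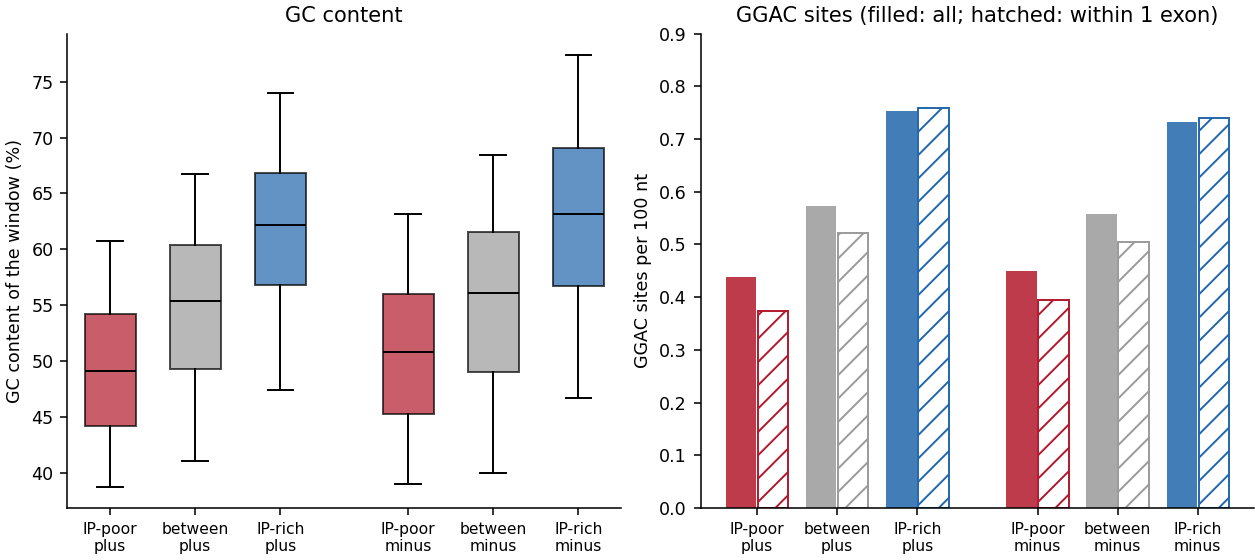
Left, GC content (%) of IP-poor, between and IP-rich coding windows on each strand; boxes span the quartiles with the median, whiskers the 5th to 95th percentile. Right, GGAC sites per 100 nt in the same groups, filled bars for all placed windows and hatched bars for windows within 1 exon; IP-poor windows had 0.439 and 0.451, against 0.752 and 0.732 in IP-rich windows.

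Position along the coding sequence differed between strands. The authors' region label reads the end of a window that is leftmost on the genome, so 379 of the placed plus-strand members cross the stop codon and 2 the start codon, while 261 minus-strand members cross the start codon and 2 the stop codon. The median midpoint of IP-poor windows lay at 0.491 of the coding sequence on the plus strand, with 0 at the start and 1 at the stop codon, against 0.425 for IP-rich windows. Minus-strand IP-poor windows lay at 0.411, against 0.483. The direction was thus opposite between strands, and for windows within 1 exon on the minus strand it was turned round, with IP-poor windows at 0.475 against 0.372 for IP-rich ones. By decile of the coding sequence, deciles 2 to 8 each held 10.1 to 11.9% of IP-poor windows on the plus strand. Decile 1 held 6.23% of plus-strand and 12.5% of minus-strand IP-poor windows, and decile 10 held 8.16% and 4.18%. Midpoints in coding sequence within 200 nt of the stop codon made up 11.4% and 5.19% of IP-poor windows, against 11% and 8.17% of IP-rich ones. The medians, deciles and these shares cover only windows with their midpoint in coding sequence (3932 and 2295 IP-poor ones). Midpoints in the 3' UTR are left out, so these are not shares on both sides of the stop codon.

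**Figure D4:**
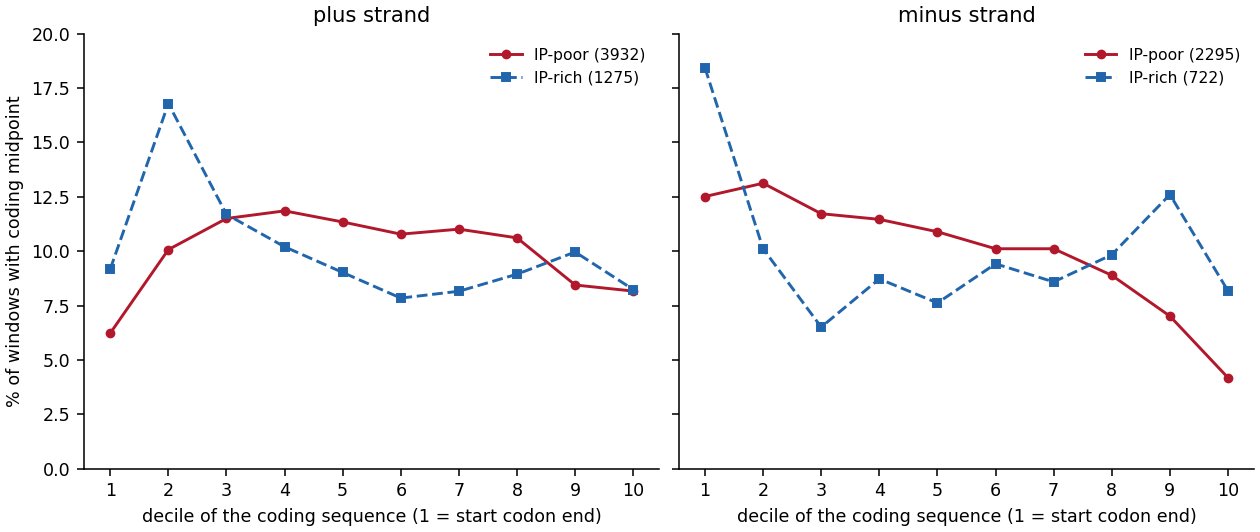
Share of windows (%) with their midpoint in each decile of the coding sequence, from the start codon end (1) to the stop codon end (10), for IP-poor (red) and IP-rich (blue) coding windows on the plus strand (left) and the minus strand (right). IP-rich windows peak in decile 2 on the plus strand (16.8%) and decile 1 on the minus strand (18.4%), and no decile holds more than 13.1% of IP-poor windows.

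Some genes held many IP-poor windows. Overlapping windows share reads, and 2863 of 4092 placed members on the plus strand and 1635 of 2409 on the minus strand remain when each overlaps no other. DYNC1H1, the heavy chain of cytoplasmic dynein, had 19 IP-poor windows among 26 coding ones, from exon 3 to exon 66, with 7 to 305 IP and 665 to 1367 input reads. NAV2, a neuron navigator protein, had 19 of 33. ITGA6, the integrin alpha 6 subunit that binds laminin, had 14 of 17, with 5 to 62 IP and 284 to 952 input reads. KPNB1, importin beta, had 14 of 15, and NEDD4L, a ubiquitin ligase, 14 of 19. FAT1 on the minus strand had 20 of 22, 9 of them within 1 exon, and HUWE1, a giant ubiquitin ligase, had 20 of 21, with 5 to 21 IP and 77 to 230 input reads. HSPG2, the basement membrane proteoglycan perlecan, had 19 of 37, MBTPS1, the site-1 protease that activates SREBP factors, 16 of 20, and SNRNP200, the splicing helicase Brr2, 15 of 19.

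An IP-rich window in any region was found in 4 of the 5 plus-strand genes named here and in 1 of the 5 minus-strand genes. ITGA6 had an IP-rich window in the 5' UTR with a ratio of 82.0, and DYNC1H1 one with 12.1. The highest ratio in NAV2, 13.5, was in the 3' UTR. HUWE1 reached at most 1.90, in the 5' UTR, and FAT1 at most 0.794 in any listed window. Of genes with an IP-poor coding window, 50.8% on the plus strand (825 of 1624) and 23.3% on the minus strand (222 of 954) also had an IP-rich window in any region, against 53.3% (1798 of 3373) and 31.8% (742 of 2334) of all genes with a coding window. With at least 100 reads per window the shares among genes with an IP-poor window were 27% and 13.6%, and for windows within 1 exon 42.1% and 13.6%. The share of all genes with a coding window was not computed under these settings, so 53.3% and 31.8% are no background for them. On the plus strand 40.3% had one labelled 5' UTR, 17.8% one labelled coding and 2.03% one labelled 3' UTR, and on the minus strand 3.25%, 15.1% and 7.02%. The label's reading of the leftmost end, given above, moves with this difference between strands. All listed coding windows were IP-poor in 462 of 3373 plus-strand and 317 of 2334 minus-strand genes with a coding window. Among genes with 5 or more coding windows this held in 47 of 651 and 24 of 359. A gene with 1 listed coding window meets this whenever that window is IP-poor, as 35.9% and 33.3% of all coding windows were. In ARHGEF12 and CRIM1, a transmembrane regulator of BMP signalling, on the plus strand, 11 of 11 coding windows were IP-poor. The same held for ILF2, an RNA-binding protein, on the minus strand.

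Within genes that held both kinds of coding window, composition differed in the same direction as between genes. The IP-poor windows had the lower median GC content in 232 of 283 plus-strand and 120 of 141 minus-strand genes, with a median difference of -6.98 and -7.43 percentage points. The exon at their midpoint was shorter in 173 and longer in 94 plus-strand genes, and shorter in 103 and longer in 33 minus-strand genes. GGAC density was lower in 164 and 87 genes and higher in 96 and 49. Within 1 exon, where 33 and 12 genes had both kinds, GC content was lower in 27 and 8 of them, but the exon was shorter in 12 and longer in 11 on the plus strand, and shorter in 6 and longer in 2 on the minus strand. The IP-poor windows lay 3' of the IP-rich ones in 210 plus-strand genes and 5' of them in 73, whereas on the minus strand 58 lay 3' and 83 lay 5'.

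The widest gap on the plus strand was in PSMD2, the proteasome subunit named above. Its window across exons 12 and 13 had 24 IP and 1878 input reads (ratio 0.0128, interval 0.00817 to 0.0191), against 19425 IP and 565 input reads in the window across exons 1 and 2 (34.4, interval 31.6 to 37.5). It had 9 IP-poor windows among 16 coding ones. Input reads in the IP-poor windows were between 1144 and 1995, and IP reads between 24 and 405. A pair of windows across exons 7 to 9 stood between, with 1984 IP and 1706 input reads and 2911 and 2185, so that coding RNA poor in IP reads lay on both sides of a stretch with about 1 IP read per input read.

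In MYH9, the heavy chain of non-muscle myosin IIA, the widest gap of the minus strand ran the other way along the gene. The window across exons 7 and 8 had 5 IP and 480 input reads (ratio 0.0104, interval 0.00337 to 0.0245), against 10909 IP and 737 input reads across exons 22 and 23 (14.8, interval 13.7 to 16.0). It had 6 IP-poor windows of 22 coding ones, all within the first 1319 nt after the start codon, and the IP-rich windows began at 2500 nt. No window drawn for MYH9 lay beyond 2849 nt of its 5883 nt coding sequence, so the rest of the gene has no values here. The IP-poor window had 42.3% GC and 1 GGAC site, against 61.0% GC and 0 GGAC sites.

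**Figure D5:**
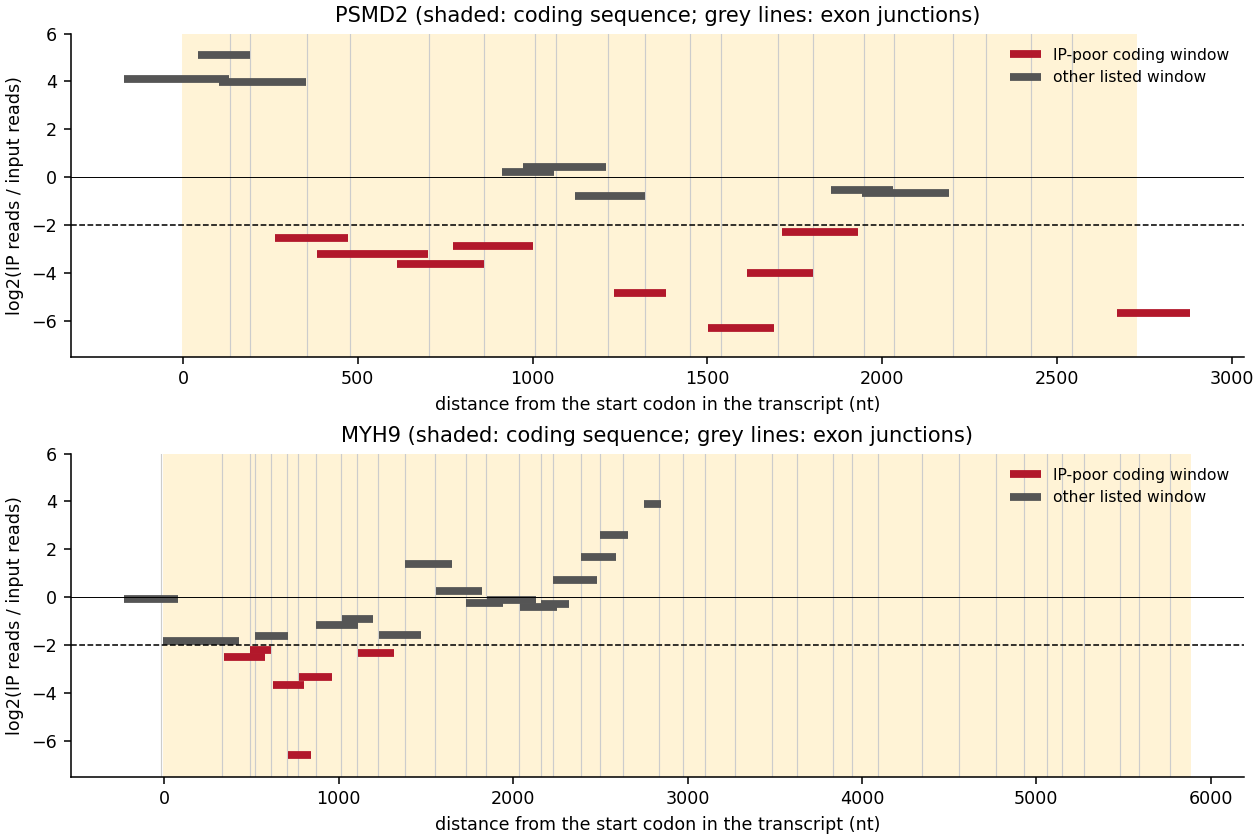
log2 of IP reads over input reads for each listed window of PSMD2 (top) and MYH9 (bottom), drawn at its place in the spliced transcript in nt from the start codon. Red bars are IP-poor coding windows, dark bars other listed windows; shading marks the coding sequence, grey lines exon junctions and the dashed line the threshold of 4 input reads per IP read. PSMD2 alternates between IP-rich, IP-poor and intermediate stretches. In MYH9 the 6 IP-poor windows lie near the start and the IP-rich ones further 3', with no window beyond 2849 nt of the 5883 nt coding sequence.

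Gaps of this kind were seen in genes of other functions. QSOX1, a secreted sulfhydryl oxidase, had 32 IP and 1611 input reads across exons 8 and 9, against 17620 IP and 1282 input reads in its last exon of 7769 nt. THRAP3, an RNA-processing factor, had 18 IP and 349 input reads across exons 6 and 7, against 8791 and 372 within exon 5. U2AF2, the splicing factor that binds polypyrimidine tracts, had 39 IP and 606 input reads across exons 7 to 9, against 5139 and 184 across exons 2 and 3. On the minus strand MYO10, the myosin of filopodia, had 6 IP and 250 input reads, against 4032 and 183. SAFB2, a nuclear matrix protein, had 5 and 126, against 1930 and 49, and DNMT1, the maintenance DNA methyltransferase, had 7 and 346, against 4096 and 368. In DNMT1 the IP-poor window had the higher GC content, at 45.8% against 42.5%.

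The share of coding windows that were IP-poor was set beside that of all coding windows, 35.9% and 33.3%, in 16 lists of genes, which were chosen with results of these data known. Of the 16, 11 lay above it on both strands and 2 below it on both. Among chaperones and proteasome subunits 51 of 72 plus-strand (70.8%) and 41 of 62 minus-strand (66.1%) coding windows were IP-poor, with median ratios of 0.0850 and 0.116. Aminoacyl-tRNA synthetases, which charge tRNAs, had 28 of 38 (73.7%) and 39 of 68 (57.4%). Nucleoporins and transport receptors had 45 of 69 (65.2%) and 36 of 66 (54.5%), with 0 IP-rich coding windows on either strand. Of all coding windows 12.1% and 11.8% were IP-rich, and the list of cholesterol and fatty acid synthesis also had 0 on either strand. Translation initiation and elongation factors had 42 of 74 (56.8%) and 15 of 29 (51.7%), and DEAD and DEAH box helicases with the splicing core 24 of 44 (54.5%) and 34 of 60 (56.7%).

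Other lists lay nearer the background or differed between strands. Ubiquitin ligases had 37 of 73 (50.7%) and 50 of 105 (47.6%), replication factors and DNA polymerases 29 of 60 (48.3%) and 24 of 45 (53.3%), and motor proteins 28 of 47 (59.6%) and 39 of 96 (40.6%). Cholesterol and fatty acid synthesis had 14 of 18 (77.8%) and 10 of 28 (35.7%), glycolysis 25 of 58 (43.1%) and 6 of 7 (85.7%), and chromatin remodellers 36 of 98 (36.7%) and 34 of 75 (45.3%). Receptor tyrosine kinases had 29 of 64 (45.3%) and 3 of 9 (33.3%), and integrins, laminins, collagen IV and perlecan 26 of 81 (32.1%) and 49 of 108 (45.4%). Cytoskeletal linkers had 87 of 225 (38.7%) on the plus strand and 6 of 51 (11.8%) on the minus strand. The lists below the background on both strands were m6A writers, erasers and readers, with 11 of 34 (32.4%) and 5 of 17 (29.4%), and the short-lived regulators around AP-1 and MYC, with 6 of 21 (28.6%) and 0 of 3. The members of a list differ in exon structure and in depth, so no share is read as particular to its list.

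In each list the gene with the lowest bound gives an example. KPNB1 had 5 IP and 995 input reads across exons 17 and 18, ITGA6 had 6 and 902 across exons 14 and 15, and HSPD1 had 6 and 851 across exons 9 and 10. EIF3M, of initiation factor 3, had 7 and 1138, with CCDC73 overlapping it, and NEDD4L had 6 and 735. GARS, the glycyl-tRNA synthetase, had 5 and 546, EGFR, the epidermal growth factor receptor, 5 and 487 across exons 2 and 3, and FDFT1, squalene synthase, 6 and 480 in a window with its midpoint in the 3' UTR. SNRNP200 had 5 and 413, the remodeller CHD4 5 and 341 where AC006064.6 overlaps it, the helicase subunit MCM3 5 and 297, and TLN1, talin 1, 5 and 262. MYO5A, the vesicle motor myosin Va, had 9 and 1112 in a window whose introns of 95494 nt hold the pseudogene EEF1B2P1, while its other listed windows had 10 to 27 input reads. YTHDF2, an m6A reader, had 6 and 208 within its exon 4 of 1584 nt. DUSP5, a phosphatase of ERK induced by growth factors, had the highest of these ratios, with 21 IP and 238 input reads.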

How the data were processed

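The authors deposited 1 table of windows, and per the file headers it holds for each a gene symbol, coordinates, strand, region, an input and an IP read count, a p-value, an FDR and a score. These deposited read counts are whole numbers, 1 of each kind for 2 IP and 2 input libraries, and were treated as pooled. The authors' p-value, FDR and score were described only; listed windows had an FDR of at most 0.1 and a score of at least 1.00. The submitters' processing notes name HISAT2, HOMER and GRCh38/hg38, without versions or roles; library totals, the peak caller's settings, strand and span of counting are not given in the sources used here.

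Of 27855 entries, 177 repeated a gene and coordinates, leaving 27678 windows. Windows were matched to GENCODE release 29 genes by symbol (27440), other name (183) or coordinates (55). They were placed on a spliced transcript where both ends lie in exons and the spliced length is a multiple of 10 nt (27154 windows; 6501 of 6598 members). The other 97 members entered read counts only. Ratios are IP over input reads without a pseudocount. Intervals are exact Clopper-Pearson intervals at the 95% level (scipy 1.17.1, Python 3.11.15), tested on simulated data, and cover counting error only. Motifs were searched on the transcribed strand. The members, gene lists and alternatives were chosen with earlier results of these data known.

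Named per strand were the 6 genes with the lowest upper bound of the ratio, the 5 with most IP-poor windows, the 3 windows with most input reads, the windows at the threshold, the gene of lowest bound in each list, and the genes with the widest gap. Further windows within 1 exon, genes whose coding windows were all IP-poor, and neighbouring windows of PCBD2, MYO5A and QSOX1 were named after their values were seen. Windows with another gene's exon in their span were kept out of the printed sequences and the gaps after seeing the data. Sequences from chromosome 8 were left out, and some genes that the rule names are not reported here.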

Additional observations from a re-analysis of the deposited data

How the results depend on the processing

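No paired analysis was possible because the deposited table holds 1 pooled count of each kind per window. Pairs of values below are for IP-poor windows on the plus and then the minus strand. The last 2 settings were chosen after seeing the data. Of 14 results over the settings run, 42 values stayed within their counting interval, 61 moved beyond it and 1 reversed. GC content, GGAC density, exon joining and exon length differed from IP-rich windows in the same direction under every setting that could be run. Median position on the minus strand reversed within 1 exon, at 0.475 against 0.372; the cause was not tested. In the next 2 settings the cut for IP-rich windows moved with that for members, so values that involve IP-rich windows reflect both changes. With members taken at 2 input reads per IP read, the IP-poor share of coding windows was 50.8% and 50.4%. GGAC density was 0.469 and 0.473 and median GC content was 50% and 52.1%. The share joining exons was 88.7% and 87.0%, the share in exons over 400 nt was 18.5% and 11.7% and the share of genes with an IP-rich window was 67.2% and 38.0%. At 8 input reads per IP read, the IP-poor share of coding windows was 21.9% and 19.7%, GGAC density on the plus strand was 0.408 and median GC content was 47.9% and 49.2%. The share joining exons was 91.9% and 90.1%, the share in exons over 400 nt was 14.9% and 7.61% and the share of genes with an IP-rich window was 31.8% and 10.5%. With coding sequence read from the annotation at both ends and the midpoint, the IP-poor share of coding windows on the minus strand was 35.7%, the share joining exons on the plus strand was 91.6% and the share in exons over 400 nt was 10.3% and 7.94%. Median position was 0.468 and 0.441. With overlapping windows merged, the IP-poor share of coding windows was 34.6% and 31.3%, the share joining exons was 88.1% and 90.5% and the share in exons over 400 nt was 22.8% and 12.9%. With 1 window per gene, the share joining exons was 89.3% and 90.3%, the share in exons over 400 nt was 23.2% and 12.6% and median position was 0.508 and 0.391. With at least 100 reads per window, the IP-poor share of coding windows was 38.7% and 37.7%, median GC content on the plus strand was 48.5% and the share joining exons was 93.7% and 91.1%. The share in exons over 400 nt was 13.6% and 8.42% and the share of genes with an IP-rich window was 27.0% and 13.6%. Within 1 exon, the IP-poor share of coding windows was 17.0% and 16.0%, GGAC density was 0.374 and 0.395 and the share in exons over 400 nt was 64.9% and 36.2%. Median position was 0.558 and 0.475 and the share of genes with an IP-rich window was 42.1% and 13.6%. Without another gene's exon in the span, the share joining exons on the plus strand was 89.4% and the share of genes with an IP-rich window on the plus strand was 46.0%. Merged windows and 1 window per gene give no share of genes, and 1 window per gene gives no share of coding windows. The floor of 5 IP reads keeps RNA with fewer IP reads out of every setting.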

Other observations

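Ribosomal protein genes recurred among the named windows, so their whole families were counted, by symbol and after their values were seen. Of coding windows in cytosolic ribosomal protein genes, 15 of 29 on the plus strand (51.7%, interval 32.5 to 70.6) and 19 of 25 on the minus strand (76.0%, interval 54.9 to 90.6) were IP-poor, with median ratios of 0.132 and 0.0363, against 0.482 and 0.487 over all coding windows. Of all coding windows 35.9% and 33.3% were IP-poor, and the interval of the plus-strand share holds 35.9%. The family's windows come from 10 and 7 genes, and the intervals do not measure the spread between genes. Small nucleolar RNA genes, pseudogenes or other annotated genes lie in or overlap many of these windows, and 10 and 14 IP-poor ones remain without them. Windows within 1 exon were few, 3 of 3 and 1 of 2 being IP-poor. Mitochondrial ribosomal protein genes, encoded in the nucleus, had 14 of 41 (34.1%) and 9 of 12 (75%), close to the share of all coding windows on the plus strand.

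Coding windows of zinc finger genes named ZNF were IP-poor in 42 of 258 cases on the plus strand (16.3%, interval 12 to 21.4) and 12 of 134 on the minus strand (8.96%, interval 4.71 to 15.1), with median ratios of 1.32 and 1.59, against shares of 35.9% and 33.3% over all coding windows. Within 1 exon 13 of 123 and 4 of 73 were IP-poor, against 17% and 16% of all coding windows within 1 exon. These genes are known for carrying their zinc fingers in a single long last exon.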
